A study of Blastobotrys raffinosifermentans with 8 samples.

Results

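Gene expression of the yeast Blastobotrys raffinosifermentans 15 min and 30 min after transfer to medium with protocatechuic acid was compared. The comparison rests on 2 of the 8 arrays of the series, titled PA_15min and PA_30min, which were chosen by their titles. Wild-type cells of strain LS3 were pregrown overnight in minimal medium with glucose and nitrate, pelleted, and shifted to minimal medium with nitrate, 1% glucose and 0.5% protocatechuic acid. In the cultures used for comparison (Glc_15min and Glc_30min) the second medium held 1% glucose alone, so that all cells were pelleted, shifted and kept on glucose and nitrate. Each combination of medium and time was measured on 1 array, and the sources do not say whether the times of 1 medium came from 1 flask. The change within the protocatechuic acid cultures therefore could not be tested from these 2 arrays, and a culture cannot be told apart from its time. An additive fit of medium and time over all 8 arrays, which takes the time course to be equal in both media, was not run. PA_15min and PA_30min share a row of the slide, whereas the arrays of the glucose cultures are in the other row, and an effect of the row cannot be told apart from one of the medium.

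Protocatechuic acid is a hydroxylated benzoic acid that microorganisms meet during the breakdown of plant material. In this yeast tannases release gallic acid from tannins, and hydroxylated benzoic acids such as gallic and protocatechuic acid can be decarboxylated, which turns protocatechuic acid into catechol. A catechol-1,2-dioxygenase opens the ring of catechol to cis,cis-muconic acid, and in the 3-oxoadipate pathway the product is carried on to intermediates of the citric acid cycle. Oxalocrotonate decarboxylase, oxopentenoate hydratase and 4-hydroxy-2-oxovalerate aldolase are, in bacteria, successive steps of another route that ends in pyruvate and an aldehyde.

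The array holds 61537 spots with yeast probes under 6160 gene identifiers. For each gene the median over its spots of the log2 values in the authors' normalized table was taken. An SD describes the spots of 1 gene hybridized with the same RNA and says nothing of the spread between cultures. Of the yeast spots, 70.0% were well above background at 15 min and 61.7% at 30 min with protocatechuic acid, against 69.4% and 58.9% with glucose. A spot well above background was found for 6010 identifiers on 1 or both of the protocatechuic acid arrays, and these are the genes counted below. For 5561 of them it was found on both. Probes placed on 2 spots gave the same log2 difference between the arrays to within a median of 0.15, and to within 0.51 for 95% of 2644 such probes. The 7 spike-in control probes that were measured on both arrays differed by 0.02 to 0.47 between 30 min and 15 min (median 0.25), and by a median of 0.22 in glucose. RNA added in equal amounts was thus listed slightly higher at 30 min in both media.

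From 15 min to 30 min with protocatechuic acid, 528 of 6010 genes were higher by at least 1 on the log2 scale (8.79%) and 638 were lower by at least 1 (10.6%), a change of at least 2-fold. The median of all genes was 0.10, with quartiles at -0.33 and 0.48, and 56.6% of the genes lay within 0.5 of 0. By at least 4-fold, 108 genes were higher and 201 lower (1.8% and 3.34%), and by at least 8-fold 32 were higher and 66 lower (0.532% and 1.1%). In this table the decreases thus outnumbered the increases at each threshold, and the extremes were 4.84 and -6.42. All spots of the gene moved in the same direction for 464 of the 528 higher and for 516 of the 638 lower genes. The split between higher and lower depended on the scaling. Of all genes past 1 in size, 45.3% were higher in the deposited table. The share was 23.3% after the median of the spike-in spots was subtracted, which moved the median of all genes by -0.33, and 57.2% when the processed signal of the scanner software was used, which moved it by 0.22.

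Of the genes counted as lower, 44 had no spot well above background at 30 min, so that only an approximate bound on the change is given. It uses the lowest yeast spot well above background on the array, or the gene's own value if higher, and is not a detection limit of the gene. The bound was at least 2-fold for 40 of them. The largest was 15.2-fold, for a gene that went from a log2 level of 8.92 to a value not well above background. Among the higher genes 7 were not measured at 15 min. By the same bound all of them were at least 2-fold higher at 30 min, and the most changed was 4.06-fold higher.

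Fewer genes passed 1 over the same interval in the glucose cultures. There, 342 of 5997 genes were higher by at least 1 (5.7%) and 399 lower (6.65%), and the SD of the log2 differences over all genes was 0.74, against 0.94 with protocatechuic acid. Over the 5922 genes measured in both media, the differences of the media had a Pearson correlation across genes of 0.64, where genes are not independent replicates and the medium is confounded with the slide row. Both media shared 233 of the higher genes, which is 44.2% of those higher with protocatechuic acid and 68.1% of those higher with glucose. They shared 212 of the lower genes, 33.8% of those lower with protocatechuic acid and 53.1% of those lower with glucose. A further 291 genes were higher and 414 lower with protocatechuic acid while their change in glucose stayed under 1 in size. Whether the changes of single genes differed between the media could not be tested with 1 array each.

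**Figure D1:**
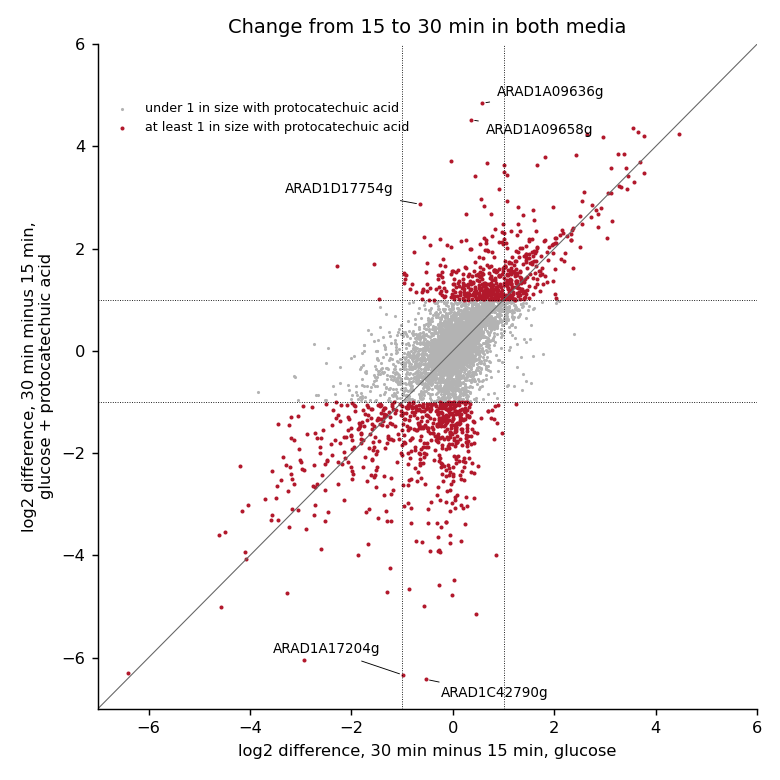
Log2 difference between 30 min and 15 min in glucose (x axis) and in glucose with protocatechuic acid (y axis), 1 point per gene measured in both media. Dotted lines mark a difference of 1, and the diagonal marks equal change. Of the 32 genes at least 3 higher with protocatechuic acid, 26 were also past 1 in glucose, while the other 6, which include the largest increase, lie far above the diagonal, and many decreases with protocatechuic acid lie at glucose differences near 0.

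Most of the largest increases were also seen in glucose, while many of the largest decreases were not. Of the 32 genes that were at least 8-fold higher with protocatechuic acid, 26 were also higher by at least 1 in glucose, and the median glucose difference of the 32 was 3.09. Of the 66 genes that were at least 8-fold lower, 32 were lower by at least 1 in glucose and 34 were not. The glucose difference was under 0.5 in size for 24 of the 66. In the 34 genes the median log2 difference was -3.67 with protocatechuic acid and -0.26 in glucose.

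The levels on the 8 arrays show at which time these 34 genes stood apart. A gap to glucose at 15 or 30 min follows in part from how they were chosen, by a large decrease in 1 medium and a small change in the other, and is given as a description. Their median log2 level with protocatechuic acid was 9.03, 5.39, 5.70 and 5.96 at 15 and 30 min and at 2 and 5 h. With glucose it was 5.67, 5.44, 5.85 and 5.89 at the same times. All 34 were at least 1 above glucose at 15 min, and 33 of 34 were within 1 of glucose at 30 min. The 30-min medians are near background in both media, where values can hardly differ by 1. The lowest yeast spot well above background at 30 min was at 4.94 with protocatechuic acid and 4.61 with glucose. How closely the levels matched at 30 min is therefore not known. By their median they were thus high on 1 array of the series, PA_15min, and close to the glucose level from 30 min on. Single genes departed from this, with 4 of the 34 above the midpoint of their 15-min and 30-min levels at 2 h and 1 at 5 h. The 26 genes that were at least 8-fold higher at 30 min and also higher in glucose had a median level of 5.31, 9.17, 7.40 and 5.98 at 15 and 30 min and at 2 and 5 h with protocatechuic acid. With glucose it was 5.80, 8.95, 6.84 and 6.24. In both media the level was highest at 30 min and had come down by 5 h. The other 6 had a median of 9.82 at 30 min with protocatechuic acid against 6.22 with glucose, and of 7.63 at 2 h and 7.15 at 5 h.

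The same contrast held for the wider groups. The 414 genes that were lower with protocatechuic acid and under 1 in glucose had a median level of 7.14 at 15 min with protocatechuic acid, 1.32 above glucose by the median over genes, and 286 of them were at least 1 above it. At 30 min their median was 5.42 with protocatechuic acid and 5.49 with glucose, and 412 of the 414 lay within 1 of glucose. Both of these medians are near background, so that this closeness is in part a matter of low signal. The 291 genes that were higher with protocatechuic acid and under 1 in glucose started 0.45 below glucose at 15 min and were 0.26 above it at 30 min, by the median over genes. At 15 min 28 of them were at least 1 below glucose. These gaps, too, follow in part from the choice of the genes. The 233 genes that were higher in both media had a median gap to glucose of -0.27 at 15 min and -0.12 at 30 min, with 2 of them at least 1 above glucose and 4 at least 1 below it at 15 min. For the 212 genes that were lower in both media the median gap was -0.32 and -0.04, over members that went both ways, with 20 at least 1 above glucose and 19 at least 1 below it at 15 min. Of the 32 genes at least 8-fold lower with protocatechuic acid and also lower in glucose, 11 were at least 1 above glucose at 15 min.

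**Figure D2:**
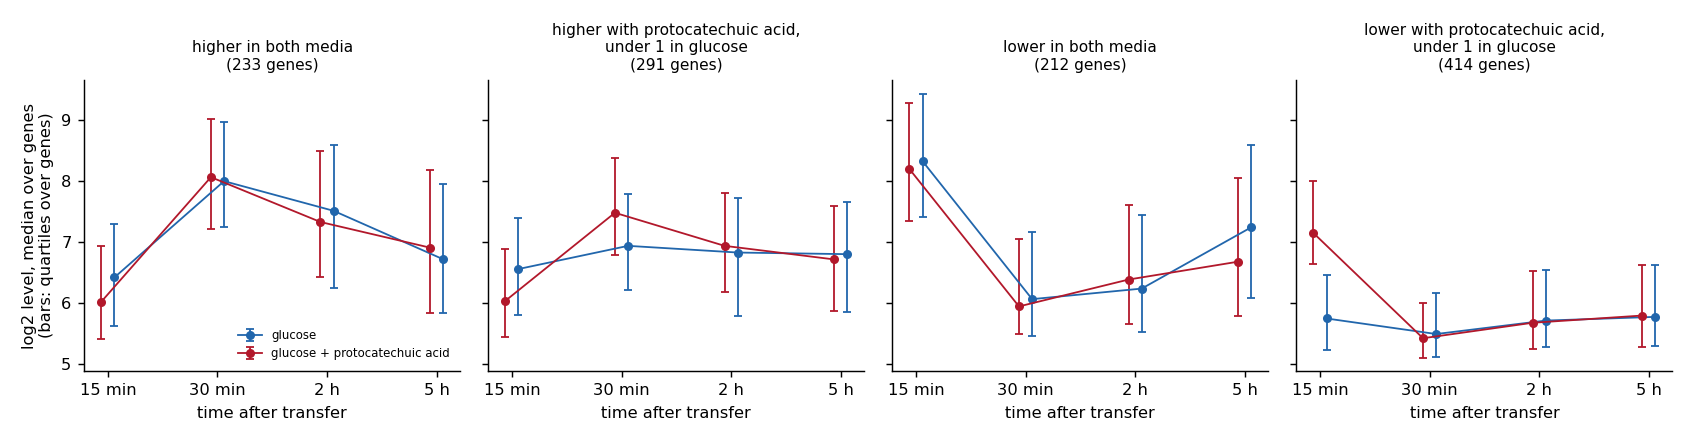
Median log2 level over genes (points) with quartiles (bars) on the 8 arrays, for the genes that were at least 1 higher or lower from 15 to 30 min with protocatechuic acid, split by their change in glucose. By its median, the group in the right panel was high at 15 min with protocatechuic acid and near the glucose level afterwards.

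The levels at the later times show how far these changes were kept. Of the 528 genes that were higher at 30 min, 61.9% were above the midpoint of their 15-min and 30-min levels at 2 h and 47.2% at 5 h. Of the 638 genes that were lower at 30 min, 82.8% were below that midpoint at 2 h and 76.2% at 5 h. The median level of the higher genes was 6.03, 7.72, 7.10 and 6.73 at 15 and 30 min and at 2 and 5 h. The median level of the lower genes was 7.44, 5.57, 5.87 and 5.94 at these times. Relative to the spike-in spots the shares at 2 h were 73.5% of the higher and 58.2% of the lower genes, and at 5 h they were 26.1% and 79.3%. These values share the 15-min and 30-min arrays with the choice of the genes and are given as a description.

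The largest increases in the deposited table by the rule for named genes, which asks for at least 5 spots that all moved in the same direction, were those of ARAD1A09636g and ARAD1A09658g. No file gives a gene name for them. ARAD1A09636g had a log2 level of 4.90, 9.74, 7.26 and 7.31 at 15 and 30 min and at 2 and 5 h with protocatechuic acid. With glucose it had 4.95, 5.54, 5.13 and 5.27, so that only the 3 later protocatechuic acid arrays were high. Its difference between 30 min and 15 min was 4.84 ± 0.97 (SD over 12 spots), against 0.58 ± 0.18 in glucose. The spots lay between 4.47 and 5.62 at 15 min, with 3 of 12 well above background, and between 7.29 and 10.30 at 30 min. With most spots near background at 15 min the size of the increase is uncertain, and it ran from 3.78 to 6.60 over the 13 settings run on it.

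ARAD1A09658g, the next identifier on chromosome A, had a log2 level of 6.13, 10.64, 7.71 and 6.78 at 15 and 30 min and at 2 and 5 h with protocatechuic acid. With glucose it had 7.24, 7.60, 7.09 and 7.15. It was thus lowest of all 8 arrays on PA_15min and highest on PA_30min. The difference was 4.52 ± 0.44 (SD over 12 spots), or 22.9-fold, against 0.36 ± 0.10 in glucose. The spots did not overlap, with 5.53 to 7.25 at 15 min and 9.38 to 12.11 at 30 min.

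The largest decreases by the same rule were those of ARAD1C42790g and ARAD1A17204g, for which no file gives a name either. ARAD1C42790g had a log2 level of 11.92, 5.50, 5.09 and 5.35 at 15 and 30 min and at 2 and 5 h with protocatechuic acid. With glucose it had 5.82, 5.29, 5.01 and 5.53, and PA_15min was the only array on which it was high. The difference was -6.42 ± 1.00 (SD over 10 spots), 85.9-fold lower at 30 min, against -0.53 ± 0.46 in glucose. The 10 spots lay between 9.80 and 12.68 at 15 min and between 5.10 and 6.17 at 30 min, where 6 of them were well above background. With the 30-min level near background the size of the decrease is uncertain, and it ran from -7.30 to -5.61 over the 13 settings run on it.

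ARAD1A17204g had a log2 level of 11.86, 5.52, 6.52 and 7.71 at 15 and 30 min and at 2 and 5 h with protocatechuic acid, and 7.10, 6.11, 6.77 and 8.06 with glucose. It was above glucose at 15 min alone, and slightly below it from 30 min on. The difference was -6.34 ± 1.27 (SD over 9 spots), 80.9-fold lower, against -0.99 ± 0.55 in glucose. The spots lay between 8.26 and 12.56 at 15 min and between 4.88 and 6.76 at 30 min, where 8 of 9 were well above background. Over the 13 settings run on it the decrease ran from -7.36 to -5.44.

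ARAD1D17754g is named after its values were seen, as a gene that was high on all protocatechuic acid arrays and changed further between 15 min and 30 min. Its log2 level was 10.68, 13.55, 11.504 and 12.15 at 15 and 30 min and at 2 and 5 h with protocatechuic acid. With glucose it was 5.59, 4.94, 5.15 and 5.78, and 0 of its 10 spots were well above background at 30 min. The level with protocatechuic acid was highest at 30 min, and no protocatechuic acid array overlapped with a glucose array. From 15 min to 30 min the difference was 2.87 ± 0.65 (SD over 10 spots), or 7.29-fold, and the spots reached from 8.79 to 11.40 at 15 min and up to 14.76 at 30 min, with no overlap. The glucose difference was -0.65, with the 30-min value not well above background.

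**Figure D3:**
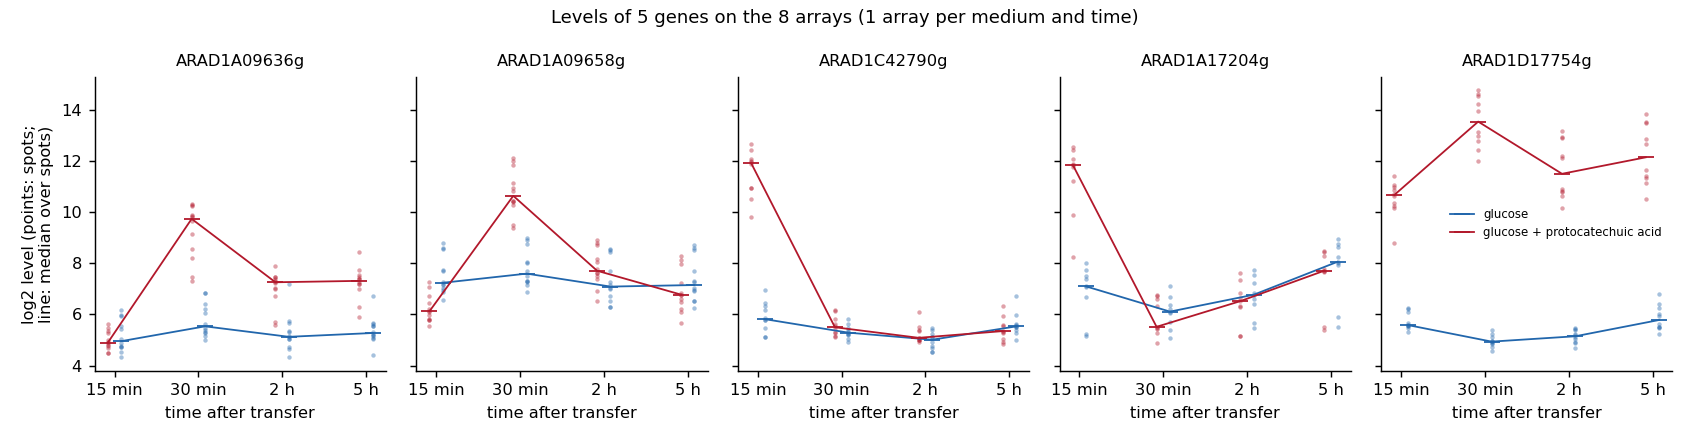
Log2 level of 5 genes at the 4 times in glucose (blue) and in glucose with protocatechuic acid (red); points are spots of the gene and lines join the medians over spots. ARAD1C42790g and ARAD1A17204g were high at 15 min with protocatechuic acid, ARAD1A09636g and ARAD1A09658g were highest at 30 min, and ARAD1D17754g was high at all 4 times.

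Some of the changed genes were neighbours. With identifiers ordered by their numbers within a chromosome letter, there were 28 runs of at least 3 consecutive identifiers that were all higher or all lower by at least 1, 15 higher and 13 lower, with 96 genes in all. The number of runs depended on the processing, with 10 for an offset of 50, 72 for an offset of 0 and 177 for the processed signal. Of these runs, 21 had 3 members, 4 had 4, 1 had 5 and 2 had 6. In 8 of the 28 runs no member was past 1 in the same direction in glucose, and in 4 runs all members were. The run of 5, on chromosome C from ARAD1C19140g to ARAD1C19228g, was higher in both media, by 1.62 to 2.92 with protocatechuic acid and by 1.97 to 2.55 in glucose. The runs named here were chosen after their values were seen, and the share of runs that neighbours would form without any relation was not computed.

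Both runs of 6 were higher by at least 1 with protocatechuic acid, while the differences of their members stayed under 1 in size in glucose. The run on chromosome A, from ARAD1A09592g to ARAD1A09702g, holds both genes with the largest increases. In the order of the identifiers its members were higher by 1.72, 3.41, 4.84, 4.52, 1.21 and 1.51 at 30 min, while their glucose differences lay between -0.97 and 0.79. The first member varied most over its spots, with an SD of 1.31. The increase was largest in the middle of the run. The levels of all 6 members were lower at 2 h than at 30 min, at between 5.29 and 7.71. Each was still above its own 15-min level, and those levels lay between 4.85 and 6.13.

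The run on chromosome D, from ARAD1D17710g to ARAD1D17820g, includes ARAD1D17754g. Its members were higher by 1.20, 2.19, 2.87, 1.55, 1.17 and 1.08, and their glucose differences lay between -0.65 and 0.03. At 15 min with protocatechuic acid these 6 genes had log2 levels of 6.12, 6.82, 10.68, 8.32, 7.95 and 6.03 in this order, and with glucose 4.98, 4.71, 5.59, 5.72, 5.57 and 4.86. Each of them was thus already above glucose at 15 min and moved further from it by 30 min. By 5 h the levels of the other 5 had fallen to between 4.99 and 6.68, while ARAD1D17754g stood at 12.15. The identifier just before this run was 0.93 higher and so just under the threshold. Before it lies a run of 3, from ARAD1D17622g to ARAD1D17666g, with differences of 2.56, 2.49 and 2.83 against 1.59, 1.28 and 0.62 in glucose.

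**Figure D4:**
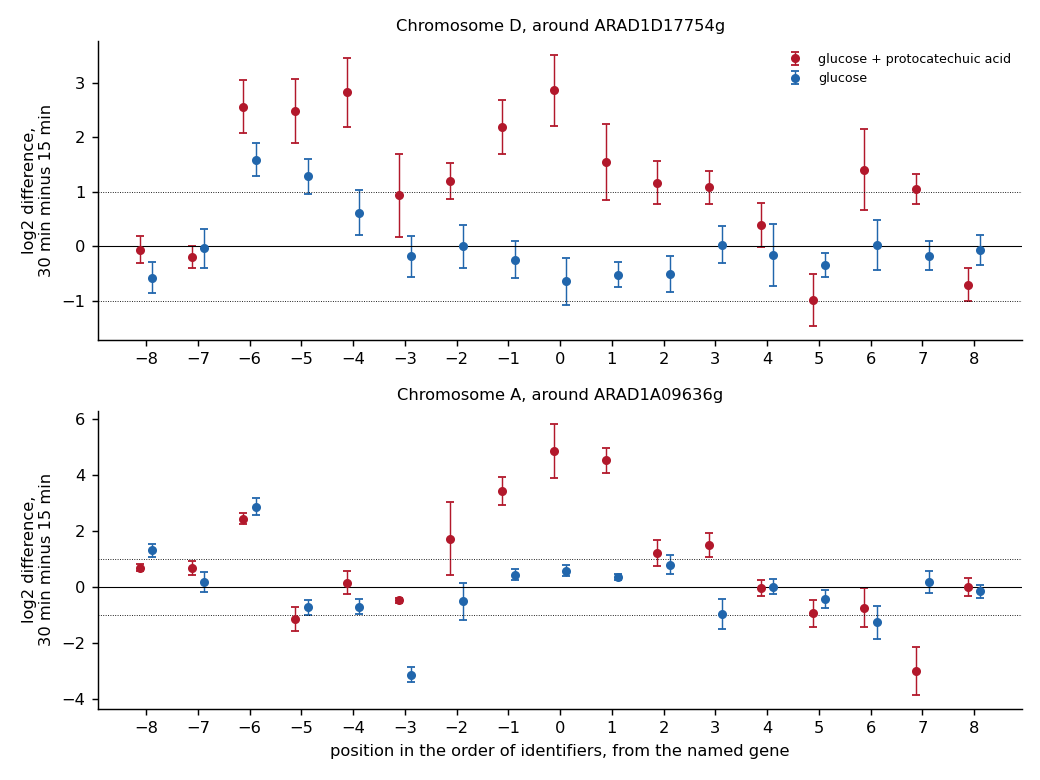
Log2 difference between 30 min and 15 min (points, with the SD over spots as bars) for identifiers on either side of ARAD1D17754g and of ARAD1A09636g, by position in the order of the identifiers. Red points stand for glucose with protocatechuic acid and blue points for glucose. The 6 neighbours of each run lie above 1 with protocatechuic acid and below it with glucose.

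The genes listed for the degradation of tannins and protocatechuic acid went both ways. The text of the study gives identifiers for ACDO1, AGDC1, the phenol hydroxylase, the hydroxylase candidates and ARAD1A17402g. Identifiers of the tannase, oxalocrotonate decarboxylase, hydratase, aldolase and enol-lactone hydrolase genes were taken from an earlier description of the whole series. Of the 17 identifiers, 16 had probes on the array and all 16 were measured on at least 1 of the 2 arrays. By at least 1, 2 of them were higher and 1 was lower, shares near those of all genes (8.79% and 10.6%). The median over the 16 was 0.02, over members from 1.99 to -1.46, and several of them were near background. ARAD1C45716g, the gallic acid decarboxylase gene AGDC1, has no probe under its identifier. Part of these genes was selected by the study on the same arrays. The probes under ARAD1D18458g start between positions 815 and 1618. The last start lies beyond the end of the open reading frame of ACDO1. The values of these probes therefore cannot be read as those of ACDO1. The probes under ARAD1D18502g start between positions 1 and 421, a short part of the length of the phenol hydroxylase. For this and the other ARAD1D identifiers, whether the probes measure the genes that the study names by these numbers is not settled. All values under ARAD1D identifiers are given as those of the probes, and the summary over the 16 identifiers includes them.

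In the hydratase step both genes listed were higher at 30 min. ARAD1A09218g had a log2 level of 7.06, 9.04, 9.18 and 8.61 at 15 and 30 min and at 2 and 5 h with protocatechuic acid, and 5.90, 6.24, 6.88 and 6.85 with glucose. Its difference between 30 min and 15 min was 1.99 ± 0.37 (SD over 11 spots), or 3.97-fold, against 0.34 ± 0.29 in glucose, and 11 of 11 spots were higher. ARAD1C00330g, which the text of the study gives only as a hydroxylase candidate, had 6.17, 7.22, 7.16 and 5.69 with protocatechuic acid. With glucose it had 4.76, 4.69, 4.88 and 4.72, and 0 of its 12 spots were well above background on any glucose array. Its difference was 1.05 ± 0.26 (SD over 12 spots), or 2.06-fold. It was 0.78 with an offset of 50, 0.94 with median scaling and 0.72 relative to the spike-in spots. Both genes held their 30-min level at 2 h, and ARAD1C00330g was lower than at 15 min by 5 h.

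For the steps on either side of the hydratase, the probes were not higher at 30 min by their median in the deposited table. Whether the genes of these steps changed was not tested. The probes of ARAD1A15158g, the oxalocrotonate decarboxylase gene, were at 5.62, 4.94, 5.48 and 5.33 at 15 and 30 min and at 2 and 5 h, a difference of -0.68 ± 0.36 (SD over 11 spots) between the first 2 times. Of its 11 spots, 9 were well above background at 15 min and 1 at 30 min, and the difference was -2.55 when taken from the processed signal and -1.17 for normexp with offset 0. For the 4-hydroxy-2-oxovalerate aldolase gene, the probes under ARAD1D18348g differed by -0.48 ± 0.22 with protocatechuic acid and by -0.37 ± 0.29 in glucose. The brightest of them differed by 0.16.

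At the start of the pathway, ATAN1 (ARAD1A06094g), a tannase that cleaves gallic acid esters, had log2 levels of 5.28 at 15 min and 5.12 at 30 min, and the putative tannase ATAN2 (ARAD1A19822g) had 4.98 and 4.96. Their differences of -0.16 ± 0.78 and -0.02 ± 0.48 were smaller than the SD over spots, and the difference of ATAN2 was 1.28 by its brightest probe and -0.35 relative to the spike-in spots. The probes under ARAD1D18458g, the identifier of the catechol-1,2-dioxygenase gene ACDO1, had 5.50 and 5.24, a difference of -0.26 ± 0.69 (SD over 11 spots). By the median over spots, a change of these 3 sets of probes was not detectable at this signal, with 2 to 4 spots of each well above background at 30 min. At 15 min it was 8 of 12 spots for ATAN1, 4 of 10 for ATAN2 and 7 of 11 for ARAD1D18458g. Lower at 30 min were 9 of 12, 4 of 10 and 8 of 11 spots in this order.

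In the 3-oxoadipate branch, the probes under ARAD1D18480g, a 3-oxoadipate enol-lactone hydrolase gene, were at 10.20 at 15 min and 10.82 at 30 min with protocatechuic acid, and at 10.20 and 10.87 with glucose. The differences of 0.62 ± 0.11 and 0.67 ± 0.22 were alike in both media to within their SD over spots. The probes under ARAD1D18502g, annotated as a phenol hydroxylase, moved in the same way, by 0.80 ± 0.14 with protocatechuic acid and 0.93 ± 0.33 with glucose. The probes under ARAD1D09306g, listed for a second 3-oxoadipate enol-lactone hydrolase gene, were not well above background at 15 min, and 4 of the 10 spots were at 30 min.

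Among the other hydroxylase candidates of the study, ARAD1C03498g was lower at 30 min. It had a log2 level of 7.47, 6.01, 5.73 and 5.69 at 15 and 30 min and at 2 and 5 h with protocatechuic acid, and 5.70, 5.73, 5.50 and 5.98 with glucose. Its difference was -1.46 ± 0.54 (SD over 10 spots), 2.74-fold lower, against 0.03 ± 0.35 in glucose. Like the 34 genes described above, it was high at 15 min with protocatechuic acid and near the glucose level from 30 min on. The other 4 candidates differed by -0.55 for ARAD1D27984g, -0.06 for ARAD1D18392g, 0.17 for ARAD1C08558g and 0.64 for ARAD1C08580g. ARAD1C08558g had 2 of 11 spots well above background at both times, and 3 of its spots were higher and 7 lower. ARAD1C08580g has 3 spots, of which 1 was well above background at 15 min and 2 at 30 min. ARAD1A17402g, a monooxygenase or oxidoreductase gene found by sequence search, had 2 of 11 spots well above background at 15 min and 0 at 30 min.

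**Figure D5:**
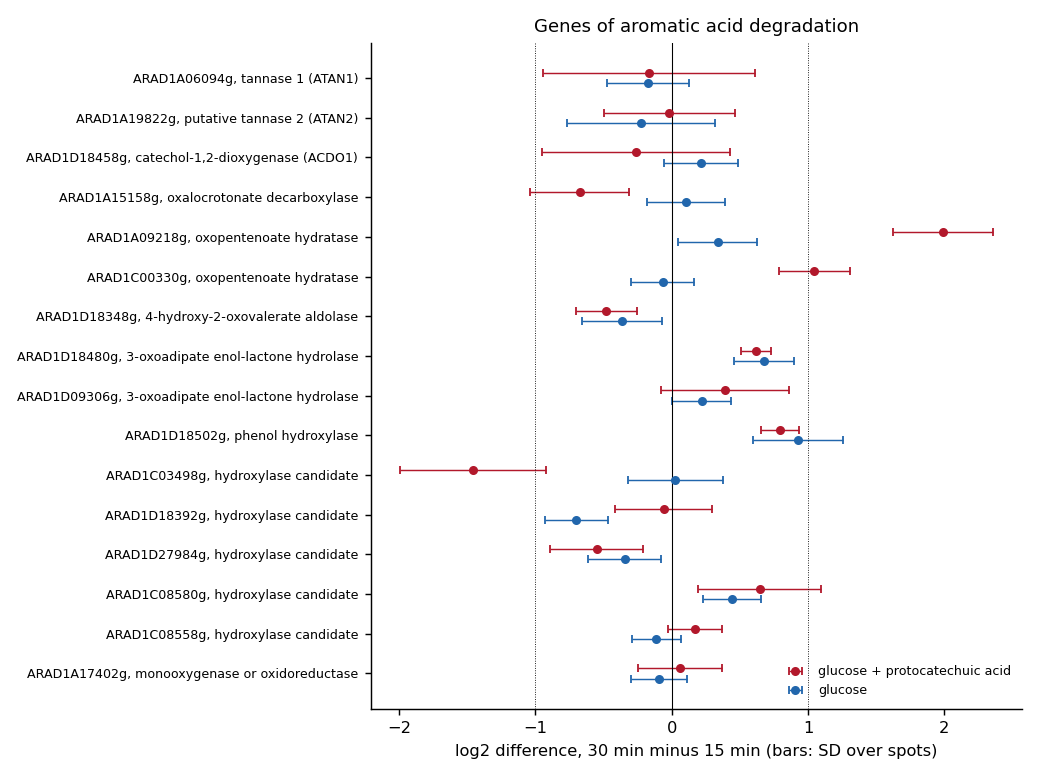
Log2 difference between 30 min and 15 min of the 16 identifiers with probes that are listed for the degradation of tannins and protocatechuic acid. Red points stand for protocatechuic acid and blue points for glucose. Bars are the SD over spots and dotted lines mark a difference of 1. Both hydratase genes lie above 1 and ARAD1C03498g lies below -1 with protocatechuic acid.

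The changes were spread over the chromosomes. On the chromosomes A to D between 7.76% and 10.2% of the genes were higher and between 10.01% and 11.1% were lower. The 31 measured identifiers with the mitochondrial letter M differed by a median of 0.07 and by -0.36 to 0.57, and 0 of them passed 1 in either direction, next to a median of 0.10 over all genes. Among the 5 classes of equal size by mean level, the 1202 genes of the lowest class held 1 higher and 0 lower genes, and those of the highest class 233 higher and 213 lower. Changes of dim genes were thus hardly measurable in these values. The median difference of well-measured spots was between 0.17 and 0.22 in each of 4 blocks of rows and 4 blocks of columns of the array.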

How the data were processed

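Expression was measured in total RNA of wild-type LS3 cells on 8 one-colour Agilent arrays (Cy3), 1 per medium and time. The log2 values used are those of the table deposited by the authors, whose methods name limma, normexp background correction and quantile normalization. When normexp (offset 16) and quantile normalization of all spots were rerun on the scanner files, no value differed from the table by more than 0.0478, which settles its scale and shows no centring. Column medians were 5.66 to 5.67. The deposited scanner files hold, per the file headers, spot and background intensity, a processed signal, and marks for spots well above background, from Agilent Feature Extraction 11.5.1.1, before normalization. No spot was saturated, and 0 to 7 spots per array were marked as outliers.

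Table rows were joined to probes by feature number, control spots were left out, and a gene is the median over the spots of its identifier. Genes with at least 1 spot well above background on either array of a comparison were counted, and a gene with none on 1 array has only a bound. It was set against the higher of its own value and the lowest yeast spot well above background on that array. The median spot intensity was 83 at 15 min and 77.5 at 30 min with protocatechuic acid, and precision is limited by the number of arrays. With 1 array per condition no test was run. The genes named are, first, those listed for the degradation of tannins and protocatechuic acid. Their identifiers and roles come from the text of the study or from an earlier description of the whole series. The others are the 2 largest increases and 2 largest decreases among genes with at least 5 spots, all moving in 1 direction, and measured on both arrays. Apart from these roles no annotation was used, so lists by function could not be made. Members and lists were chosen with earlier results of these data known.

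Alternatives were offsets of 50 and 0, the processed signal minus its 75th percentile, median scaling, quantile normalization within each medium, spike-in centring, other summaries of a gene, other filters, outliers left out, and a threshold of 2. The counting was tested on simulated data in which all spots were set as well above background. The filter, the bounds and the effect of low signal were therefore not tested. R 4.3.3, limma 3.58.1, Python 3.11.15, pandas 2.3.3 and matplotlib 3.10.9 were used.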

Additional observations from a re-analysis of the deposited data

Results flagged for a closer look

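Of the named genes with a difference of at least 1 in size between 30 min and 15 min with protocatechuic acid, 3 had a glucose difference of the opposite sign. With 1 array per medium and time the difference between the media was not tested, and in each case the glucose value was under 1 in size. ARAD1D17754g was higher by 2.87 with protocatechuic acid and had -0.65 in glucose, where its 30-min value was not well above background. ARAD1C00330g was higher by 1.05 with protocatechuic acid and had -0.066 in glucose, where no array had a spot of it well above background. ARAD1C03498g had -1.46 with protocatechuic acid and 0.027 in glucose.

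Over all genes, 4 were past 1 in size in both media in opposite directions, which also was not tested. They are named after their values were seen. ARAD1D27170g had 1.65 with protocatechuic acid and -2.29 in glucose, ARAD1D25102g 1.69 and -1.56, ARAD1A19778g 1.01 and -1.45, and ARAD1B04928g -1.05 and 1.25. The last of these has only 4 spots, with an SD over spots of 1.02 around the -1.05 with protocatechuic acid, so that its change is about as large as its SD.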

How the results depend on the processing

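No paired analysis was possible because each group holds 1 array, and no replicate could be left out. Of 182 recomputed counts, shares and medians, 117 kept within 1.5 times the count, the 95% exact binomial interval of the share or the SD over spots, and 65 did not. All of them kept with median scaling, quantile normalization within each medium, no filter, the filter on both arrays and outliers left out. The cause of the moves below was not tested. Past the midpoint means above it for genes higher at 30 min and below it for genes lower at 30 min.

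With an offset of 50, 313 genes were higher and 402 lower with protocatechuic acid, 204 were higher in glucose, 129 were higher and 141 lower in both media, 182 were higher and 257 lower with protocatechuic acid and under 1 in glucose, there were 10 runs, and 55.3% and 35.5% of the higher genes were past the midpoint at 2 h and 5 h. With an offset of 0, 836 genes were higher, 473 of them under 1 in glucose, with 72 runs. The shares past the midpoint were then 67.1% and 54.5% of the higher genes and 79.1% and 71.1% of the lower genes.

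With the processed signal, 1532 genes were higher and 1146 lower, in glucose 854 and 865, in both media 608 and 454, and with protocatechuic acid but under 1 in glucose 886 and 638, with 177 runs. The shares past the midpoint were 73.5% and 61.2% of the higher and 75.4% and 72.0% of the lower genes, and the mitochondrial median was 0.29. With the brightest probe 876 genes were higher, in glucose 669 were higher and 615 lower, in both media 410 and 326, and 452 were higher with protocatechuic acid and under 1 in glucose, with 51 runs. The shares were 71.9% and 53.0% of the higher and 79.2% and 70.0% of the lower genes.

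Relative to the spike-in spots 287 genes were higher and 944 lower, 145 were higher in both media and 136 with protocatechuic acid and under 1 in glucose, with 52 runs. At 2 h the share past the midpoint was 73.5% of the higher and 58.2% of the lower genes, the other way round than in the deposited table, and at 5 h it was 26.1% of the higher genes. The mitochondrial median was -0.26. At a threshold of 2 in place of 1, 108 genes were higher and 201 lower, in glucose 57 and 113, in both media 46 and 57, and with protocatechuic acid but under 2 in glucose 62 and 141, with 5 runs. The shares were 49.1% and 21.3% of the higher and 86.6% and 82.6% of the lower genes. With the mean over spots 86.1% of the lower genes were past the midpoint at 2 h, and with spots well above background on both arrays 72.1% at 5 h.

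ARAD1A09636g, ARAD1A09658g, ARAD1C42790g, ARAD1A17204g, ARAD1D17754g, ARAD1A09218g and ARAD1C03498g stayed at least 1 in size in the same direction in all 13 settings run on them, and ARAD1C00330g in 10 of 13. Low signal limits the dim genes, whose log2 differences shrink towards 0 as the offset grows.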
